A study of Rattus norvegicus with 19 samples.

Results

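Rab GTPases are small switch proteins that mark the membranes of a cell, and retromer is the coat that pulls cargo out of endosomes. Members were the gene symbols made of Rab, a number and at most 1 letter, together with the retromer genes Vps26a, Vps26b, Vps29 and Vps35, the tether Eea1 and the clathrin adaptor gene Ap2b1. This gave 61 of the 17455 genes in the count files, 55 of them Rab genes, and 57 of the 61 were among the 12388 genes with enough counts to be tested. By role, 9 members were placed at the early endosome, 13 in recycling (with retromer), 11 at the late endosome, 24 in the secretory path and 4 elsewhere.

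The RNA came from left ventricles of Sprague-Dawley rats that were 24 weeks old at the start, labelled wildtype and male, with 1 library per heart. Heart failure with preserved ejection fraction (HFpEF) was induced over 5 weeks with L-NAME, which blocks nitric oxide synthase and was dissolved in drinking water at 0.5 g/L, and a diet with 60% of its energy from fat. Empagliflozin (EMPA), which blocks the recovery of glucose in the kidney, and pirfenidone (PFD), an antifibrotic drug, were then given by mouth for 4 weeks. The sources used here differ on how long L-NAME and the diet were given: the methods give them for the 5 weeks before treatment, and another passage counts the weeks of treatment as induction too. Control 5w (3 libraries) and control 9w (3) had normal chow and no L-NAME and were taken at weeks 5 and 9. HFpEF (3) had L-NAME and the diet and was taken at week 5. Untreated (3) had the same induction and PBS until week 9. The drug groups had the same induction as well. EMPA (2) then had EMPA at 0.35 g/kg/day, PFD (2) had PFD at 0.3 g/kg/day, and EMPA + PFD (3) had both drugs at those doses until week 9.

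Total counts per library were 11628931, 13017754 and 12616559 in control 5w and 12205327, 9386791 and 10857636 in HFpEF. At week 9 they were 8141045, 7803050 and 9409670 in control 9w, 9951011, 10142209 and 9640990 in untreated, 7430539 and 8061054 in EMPA, 9879949 and 10366167 in PFD, and 9360259, 10318343 and 10693001 in EMPA + PFD. Levels are given as TMM-normalized CPM, a library's counts scaled to a common total, in the order of the replicate numbers. At these depths 3 counts in a library amounted to 0.215 to 0.4 CPM, a floor that covers counting error only.

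Some libraries went against their labels or stood apart. The Y-linked gene Eif2s3y was counted between 613 and 1321 times in 12 libraries and not at all in the other 7 (0 counts), namely HFpEF 1 and 3, all of untreated and both of PFD, although every rat was labelled male. Control 9w, EMPA and EMPA + PFD thus differed from untreated, and EMPA + PFD from PFD, in Eif2s3y as well as in disease or treatment, and the parts of each cannot be told apart. HFpEF differed from control 5w in the same way in 2 of its 3 libraries. RT1-CE16, a histocompatibility gene, had at most 3 counts in 8 libraries (control 5w, HFpEF and EMPA) and 308 to 922 in the other 11. It separated control 9w from control 5w, and EMPA from untreated and from EMPA + PFD, so its part in those comparisons cannot be told apart either. Untreated 2 had 19668 counts of the atrial gene Myl4, against 41 and 46 in the other untreated libraries, and control 9w had 2702, 24 and 13853. HFpEF 1 had the lowest summed level of ventricular cardiomyocyte markers of the 19 libraries, at 12780 CPM. Counts of members are therefore also given with a term for Eif2s3y in the model, and without HFpEF 1 and untreated 2, a pair chosen after seeing the data. HFpEF was the only group with both kinds of library, so the Eif2s3y term rests on HFpEF 2 against HFpEF 1 and 3 in every comparison.

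A Rab protein recruits effectors to its membrane when it binds GTP and leaves the membrane when it has hydrolysed it. Rab5 and Eea1 act where clathrin vesicles fuse into early endosomes, from which cargo either returns to the surface through Rab4, Rab11 and retromer or moves on through Rab7 to the lysosome, while Rab1, Rab2, Rab6, Rab8, Rab10 and Rab3 serve the path through the Golgi to the surface. In heart muscle, the glucose transporter Glut4 and the fatty acid transporter CD36 are held in endosomal stores and sent to the surface by this machinery.

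**Figure D1:**
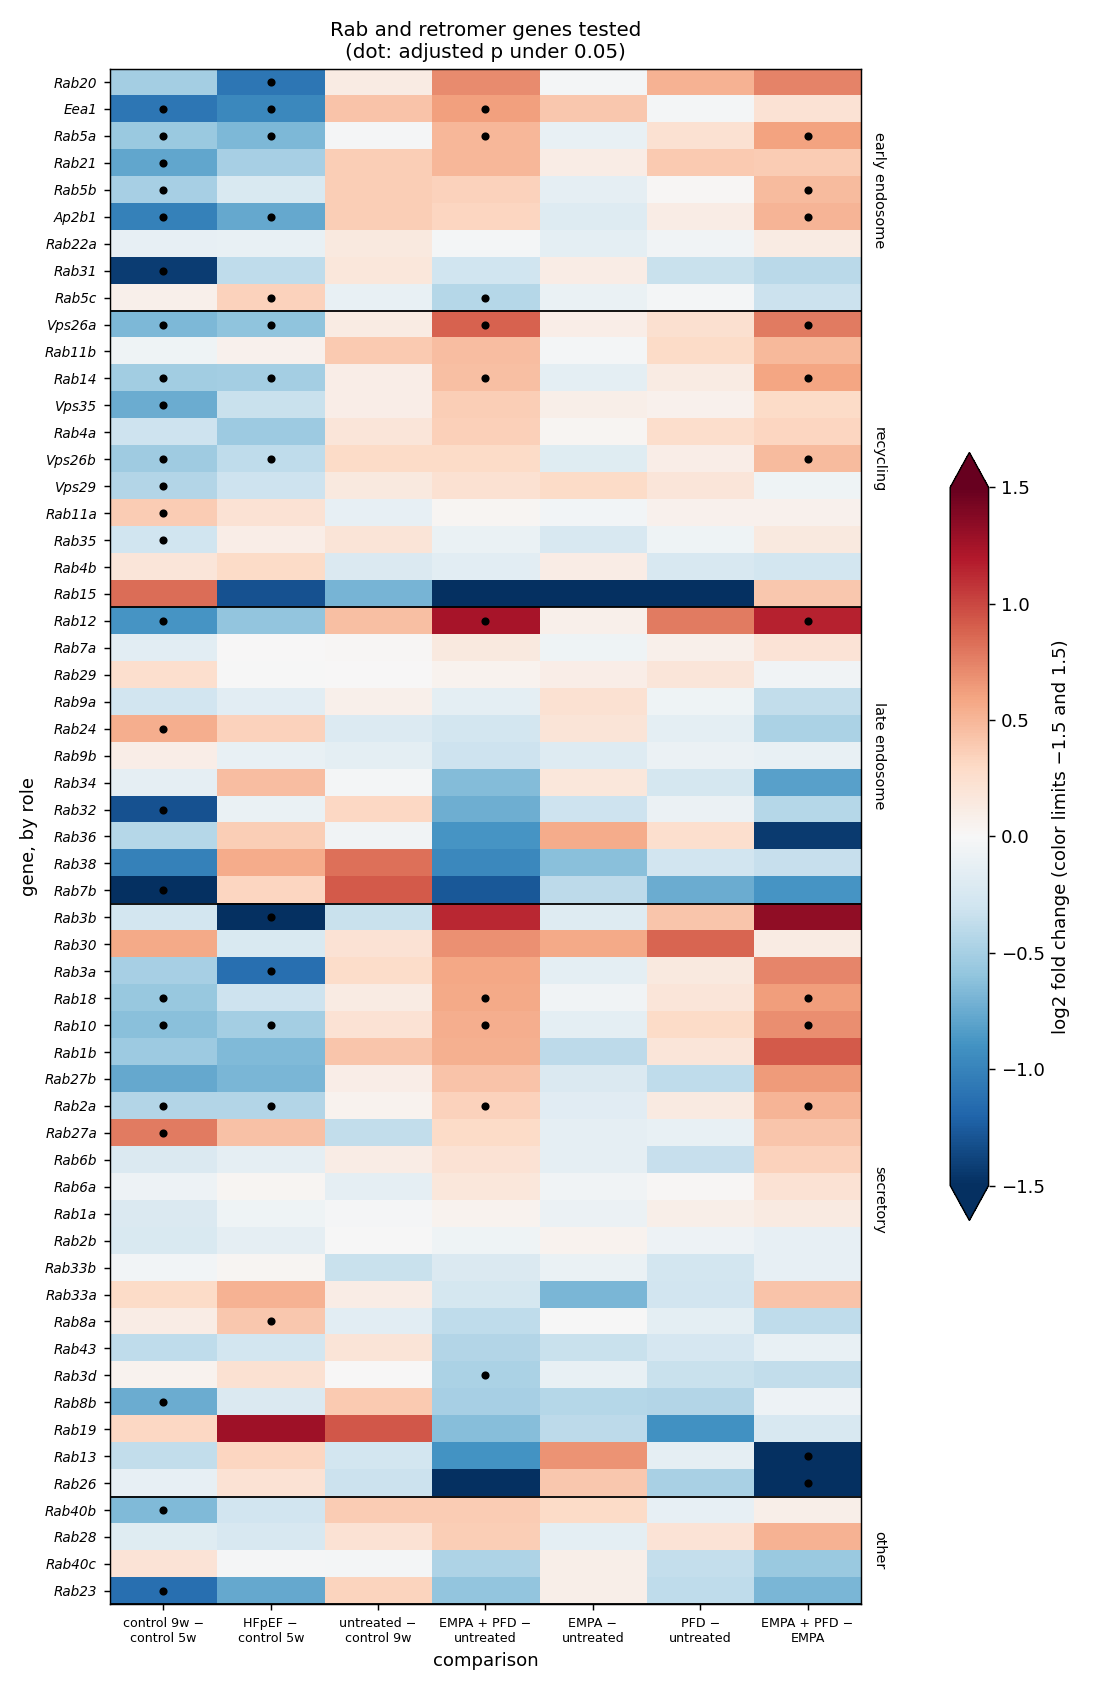
Log2 fold change of each member that was tested (vertical axis, grouped by role) in the comparisons named on the horizontal axis, with colors that saturate at -1.5 and 1.5 and dots where the edgeR adjusted p was under 0.05. In control 9w against control 5w 21 members were lower and 3 higher.

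Control hearts at week 9 were set against control hearts at week 5 (PC), a comparison of hearts without L-NAME that also differed in RT1-CE16. The retromer genes Vps26a, Vps26b, Vps29 and Vps35 fell, as did 6 of the 9 early endosome members, among them Ap2b1, Eea1, Rab5a and Rab5b, while Rab27a, Rab24 and Rab11a rose. In edgeR, 21 of the 57 members fell (36.8%), where 17.2% of all genes tested fell, and 3 rose (5.26%), where 17.3% of all genes rose. Only 6 members also changed at least 2-fold, all of them lower, a share of 10.5% beside 14.7% of all genes. The median log2 fold change was -0.32 over the members and -0.04 over all genes tested. With a term for Eif2s3y the same comparison called 24 members, beside 36.3% of all genes. Leaving out 1 library at a time gave 17 (without control 9w 2, beside 20.9% of all genes) to 24 (without control 5w 1, beside 34.4%).

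HFpEF hearts were set against control 5w (DE) to see what differed once the disease was established. Ap2b1, Eea1, Rab5a, Rab14 and Vps26a had the smallest adjusted p of the members, all lower, and Rab3b, Rab3a and Rab20 the largest falls among those called. Rab5c and Rab8a were the higher ones. In edgeR, 11 members fell (19.3%), beside 10.2% of all genes, and 2 rose (3.51%), beside 9.83%. Both directions together made 22.8% of the members and 20.0% of all genes tested, which are near to each other. Of the 13 members called, 3 (Rab20, Rab3a and Rab3b) changed at least 2-fold (5.26%, beside 8.69% of all genes). The median log2 fold change was -0.16 over the members and 0.02 over all genes. PC and DE share the control 5w libraries, so their values are given side by side. In a fit on the groups compared alone, only Ap2b1, Rab5a and Vps26a of the 13 were still called, with the share of all genes given below. The count of members called fell to 7 without control 5w 1, to 8 without HFpEF 1 and to 7 without HFpEF 2, beside 12.1%, 14% and 12% of all genes. It was 6 with a term for Eif2s3y, 7 among libraries with Eif2s3y counts, of which HFpEF has only 1, and 14 without HFpEF 1 and untreated 2, beside 10.8%, 12.4% and 19.6%.

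Untreated hearts were set against control 9w (UT) to see what differed in the disease at week 9. No member passed the adjusted threshold in edgeR, where 1.78% of all genes tested did. At an unadjusted p under 0.05 there were 8 members (14.0%, beside 18.2% of all genes), 7 of them with a higher mean in untreated. DESeq2 called Ap2b1 and Rab5b, both higher, beside 6.69% of all genes. Without untreated 2, edgeR called Rab5b, Rab12, Rab21 and Vps26b, all higher, with log2 fold changes of 0.49, 0.68, 0.60 and 0.40, beside 8.22% of all genes. Without control 9w 3, the control with the most Myl4, it called 0 members, beside 2.16%. Without HFpEF 1 and untreated 2 it called 5 members, those 4 and Rab1b, at 0.72, beside 9.26% of all genes. With a term for Eif2s3y it called 0 members, beside 0.0161%.

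The difference of UT and DE, which compares the disease effect at week 9 with that at week 5, was tested by itself. Ap2b1, Eea1, Rab14, Vps26b, Rab10, Rab5b, Vps26a, Rab12, Rab5a, Rab2a, Rab21 and Rab20 had higher disease effects at week 9, and Rab27a, Rab5c and Rab8a had lower ones. These 12 members made 21.1%, beside 9.76% of all genes tested in edgeR, and the 3 made 5.26%, beside 10.2%. For 4 of the 15 (Ap2b1, Eea1, Rab12 and Rab20) the difference was at least 2-fold (7.02%, beside 12.0% of all genes). The median was 0.43 over the members and -0.02 over all genes. This test also uses the control libraries of PC, so a fall in the controls alone raises the difference. Of the 12, all but Rab20 were called lower in PC, and of the 3 only Rab27a was called higher there. Mean levels of Ap2b1 were 97.68 CPM in control 5w, 48.48 in control 9w, 57.15 in HFpEF and 62.55 in untreated. Those of Rab20 were 50.67, 35.6, 23.9 and 38.9. The parts of control and diseased hearts were not tested. Leaving out 1 library gave 7 members without control 9w 1, 5 without control 9w 2, 5 without untreated 1, 7 without untreated 3 and 9 without HFpEF 2, beside 12.9%, 11.9%, 10.7%, 13.4% and 15.3% of all genes. It gave 21 without untreated 2 and 23 without HFpEF 1 and untreated 2 together, and a term for Eif2s3y gave 9, beside 29.9%, 28.2% and 15.3%. Ap2b1, Eea1, Rab14 and Vps26b were called with each of the 12 libraries left out in turn, Rab27a with 10 of them (not without control 9w 1 or untreated 3), Rab5c with 6 and Rab8a with 4.

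EMPA + PFD was set against untreated (TE) to see what the combined treatment changed. The members that rose were Rab12, Vps26a, Rab14, Rab18, Rab10, Rab5a, Eea1 and Rab2a, and Rab5c and Rab3d fell. The 8 that rose made 14% of the members, beside 6.60% of all genes tested in edgeR, and the 2 that fell made 3.51%, beside 5.52%. Only Rab12 changed at least 2-fold (1.75%, beside 3.82% of all genes). The median log2 fold change was 0.05 over the members and -0.03 over all genes. Without untreated 2, untreated 3, EMPA + PFD 2 or EMPA + PFD 3, edgeR called 2 members each time, Rab12 and Vps26a, beside 1.13%, 3.37%, 0.888% and 2.53% of all genes, while it called 19 without untreated 1, beside 18.3%. With a term for Eif2s3y 3 of the 10 were still called, Vps26a, Rab14 and Rab18, and Rab40c was called as lower, beside 3.99% of all genes. The omission of HFpEF 1 and untreated 2 left 2, Rab12 and Vps26a, beside 2.32%, and a fit on the 6 libraries of these groups alone left 0 of the members and 5 of all genes.

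Each drug alone was set against untreated, and the combination against each drug. EMPA and PFD alone called 0 members in edgeR, where 0.0404% and 0.00807% of all genes tested were called, and DESeq2 also called 0 in both, beside 0.783% and 0.0404% of all genes. At an unadjusted p under 0.05 there was 1 member for EMPA, Rab35 (1.75%, beside 8.63% of all genes), and there were 2 for PFD, Rab12 and Rab3d (3.51%, beside 5.21%). Adding PFD to EMPA (EMPA + PFD against EMPA) raised 10 members in edgeR (17.5%, beside 5.30% of all genes) and lowered 2 (3.51%, beside 4.42%), and 3 of the 12, Rab12, Rab13 and Rab26, changed at least 2-fold (5.26%, beside 3.44%). DESeq2 called more members, and edgeR called 11 without EMPA + PFD 1, as given below with shares of all genes. In the main edgeR fit Rab14, Rab12, Vps26a, Rab10, Ap2b1, Rab2a, Rab18, Rab5a, Rab5b and Vps26b rose, and Rab13 and Rab26 fell. These calls rest on few hearts: 2 members remained without EMPA 1, 0 without EMPA 2, 2 without EMPA + PFD 2 and 3 without EMPA + PFD 3, beside 0.712%, 0.0554%, 0.993% and 1.9% of all genes. Those left were Rab13 and Rab14 without EMPA 1, Rab12 and Rab14 without EMPA + PFD 2, and Rab12, Rab14 and Vps26a without EMPA + PFD 3.

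Adding EMPA to PFD called 0 members and 0% of all genes tested in edgeR. The unadjusted p was under 0.05 for 9 members (15.8%, beside 10.2% of all genes), and DESeq2 called Vps26a, higher, and Rab5c, lower, beside 0.84% of all genes. A departure of the combined effect from the sum of the single effects on the log scale was called for 0 members in edgeR, beside 0.00807% of all genes. That test had 6 members with an unadjusted p under 0.05 (10.5%, beside 9.13% of all genes), and DESeq2 called 0, beside 0.436%. TE, UT and the effects of EMPA and PFD share the untreated libraries, and TE and both tests of adding a drug share those of EMPA + PFD.

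**Figure D2:**
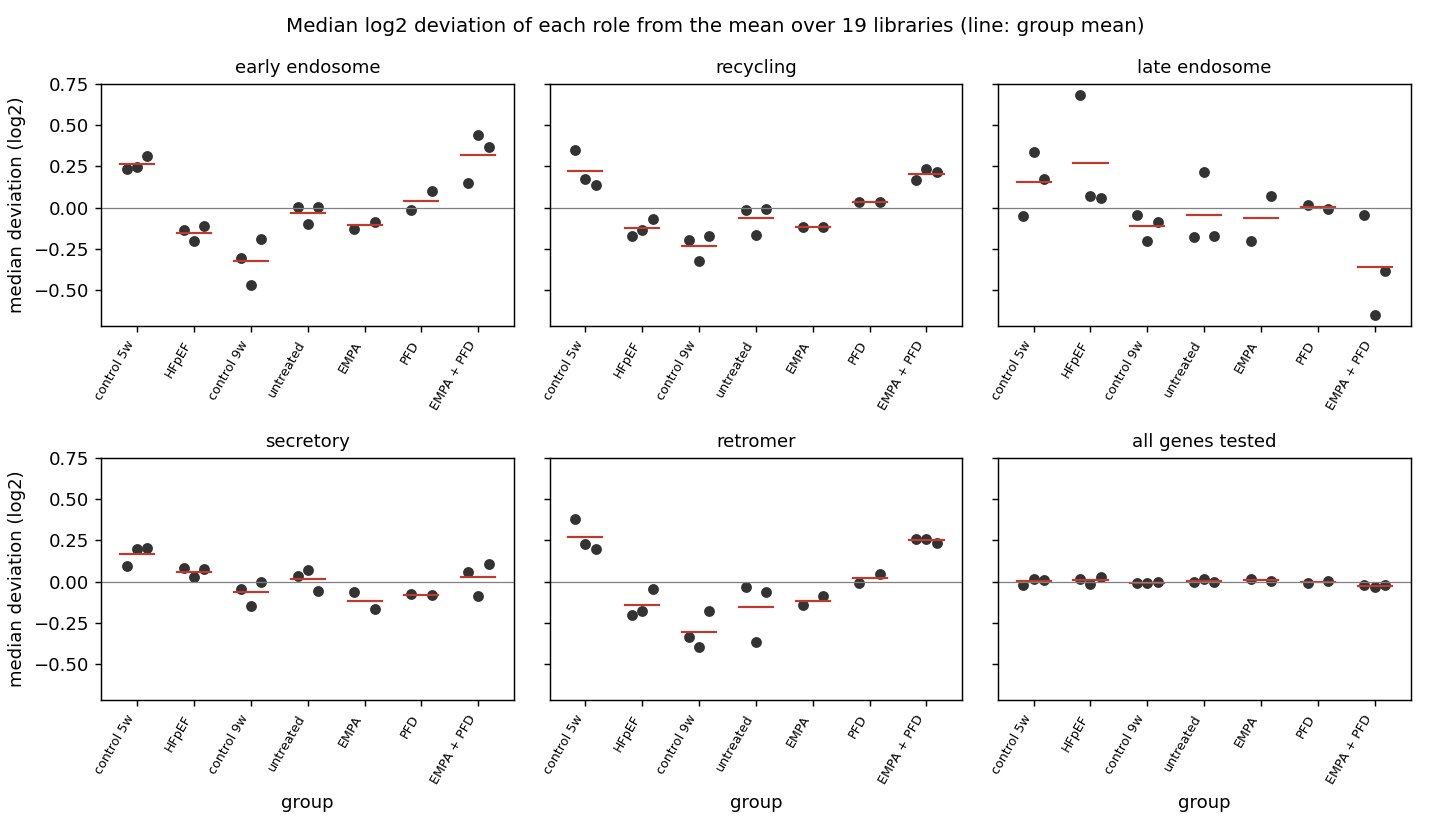
Median deviation of the tested members of each role from their means over the 19 libraries (vertical axis, log2), by group (horizontal axis). Points are libraries, lines are group means, and the last panel shows all genes tested. The early endosome medians were 0.151, 0.44 and 0.368 in EMPA + PFD and 0.002, -0.102 and 0.004 in untreated. Those of the late endosome were -0.043, -0.654 and -0.383 in EMPA + PFD and -0.18, 0.219 and -0.172 in untreated.

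Early endosome members fell more often than they rose in PC and DE. All 9 were tested, and in edgeR 6 fell in PC, 4 fell and 1 rose in DE, 2 rose and 1 fell in TE and 3 rose when PFD was added to EMPA. Of all genes tested 17.2% fell and 17.3% rose in PC, 10.2% fell and 9.83% rose in DE, 6.60% rose and 5.52% fell in TE, and 5.30% rose and 4.42% fell when PFD was added to EMPA. Their median log2 fold changes were -0.56 in PC, -0.50 in DE, 0.17 in UT and 0.34 in TE.

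Ap2b1 encodes the beta subunit of AP-2, the adaptor that links cargo to clathrin at the surface. At week 5 it stood at 87.9, 106 and 98.7 CPM in control 5w and 57.1, 55.5 and 58.9 in HFpEF. At week 9 it stood at 49, 45.6 and 50.9 CPM in control 9w, 65.4, 60.8 and 61.4 in untreated, 51.1 and 58.4 in EMPA, 64.6 and 70.2 in PFD and 67.5, 79.6 and 87.3 in EMPA + PFD. The control 5w libraries were the 3 highest of all, every untreated library lay above every control 9w library, and every EMPA + PFD library lay above every untreated one. In edgeR its log2 fold change was -1.01 (SE 0.11, adjusted p = 6.09e-05) in PC and -0.77 (SE 0.11, adjusted p = 0.000641) in DE, both called with any 1 library left out. UT gave 0.37 (SE 0.11, adjusted p = 0.0805) and TE gave 0.32 (SE 0.11, adjusted p = 0.0577), neither of them called. The disease effect differed between the weeks (log2 difference 1.14, SE 0.15, adjusted p = 0.000733), and Ap2b1 rose when PFD was added to EMPA (log2 fold change 0.51, SE 0.12, adjusted p = 0.0233).

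Eea1 encodes a tether that Rab5 brings to early endosomes before they fuse. Its level was 44.1, 32 and 31.4 CPM in control 5w and 17.4, 21.2 and 16.4 in HFpEF at week 5. The week 9 hearts had 17.5, 13.3 and 19.6 CPM in control 9w, 22.4, 24.4 and 20.9 in untreated, 30.9 and 28.7 in EMPA, 23.6 and 20.8 in PFD and 27.2, 40.9 and 35.7 in EMPA + PFD. HFpEF and control 9w libraries all lay below control 5w, and EMPA + PFD libraries all lay above untreated, with both EMPA libraries inside the EMPA + PFD range. In edgeR its log2 fold change was -1.09 (SE 0.18, adjusted p = 0.000761) in PC, -0.97 (SE 0.18, adjusted p = 0.00386) in DE and 0.42 (SE 0.18, adjusted p = 0.236) in UT. TE gave 0.62 (SE 0.18, adjusted p = 0.0414), a call that was lost without untreated 1, untreated 2, untreated 3, EMPA + PFD 2 or EMPA + PFD 3 (edgeR adjusted p = 0.0582, 0.0996, 0.102, 0.181 and 0.105, in that order). The disease effects of the weeks differed (log2 difference 1.39, SE 0.26, adjusted p = 0.0036). With a term for Eif2s3y, DE gave -0.76 (adjusted p = 0.0735) and TE gave 0.29 (adjusted p = 0.625), within a range of adjusted p over all alternatives from 3.91e-05 to 0.138 in DE and from 0.013 to 0.625 in TE.

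Rab5a, Rab5b and Rab5c are the Rab proteins of early endosome fusion. Rab5a stood at 25.5, 28.9 and 32.4 CPM in control 5w and 19.7, 16.3 and 18.4 in HFpEF. At week 9 there were 18.1, 19.4 and 21.5 CPM in control 9w, 21.7, 18.9 and 17.9 in untreated, 18.1 and 18.1 in EMPA, 26.2 and 19.4 in PFD and 24.7, 29.6 and 28.2 in EMPA + PFD. All control 5w libraries were above all HFpEF and control 9w libraries, and all EMPA + PFD libraries above all of untreated and EMPA, while PFD 1 lay inside the EMPA + PFD range. Rab5a fell in edgeR in PC (log2 fold change -0.56, SE 0.14, adjusted p = 0.00722) and in DE (log2 fold change -0.67, SE 0.14, adjusted p = 0.006), in both with any 1 library left out. Its UT value of -0.01 had a 95% confidence interval of -0.31 to 0.28. It rose in TE (log2 fold change 0.50, SE 0.14, adjusted p = 0.0349) and when PFD was added to EMPA (log2 fold change 0.60, SE 0.16, adjusted p = 0.0322), and the TE call was lost without untreated 2, untreated 3, EMPA + PFD 2 or EMPA + PFD 3 (edgeR adjusted p = 0.127, 0.0878, 0.127 and 0.0846, in that order).

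Rab5b libraries had 212, 188 and 194 CPM in control 5w and 176, 164 and 166 in HFpEF. Later they had 143, 129.5 and 149 CPM in control 9w, 205, 152 and 190.2 in untreated, 166 and 167 in EMPA, 176 and 193 in PFD and 210.3, 252 and 232 in EMPA + PFD. Each untreated library was above each control 9w library, and each EMPA + PFD library above each untreated one. The log2 fold change of Rab5b in edgeR was -0.50 (SE 0.12, adjusted p = 0.00564) in PC, -0.23 (SE 0.12, adjusted p = 0.164) in DE, 0.37 (SE 0.12, adjusted p = 0.103) in UT and 0.34 (SE 0.12, adjusted p = 0.0649) in TE. Of these only PC was called, while adding PFD to EMPA was called at 0.47 (SE 0.13, adjusted p = 0.0392).

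Rab5c rose in DE and fell in TE, where Rab5a did the reverse. Its week 5 levels were 132, 148 and 152 CPM in control 5w and 186, 180.1 and 182 in HFpEF. Its week 9 levels were 151, 169.5 and 134 CPM in control 9w, 132, 146 and 140.4 in untreated, 128 and 132 in EMPA, 140.1 and 134 in PFD and 106, 98.3 and 108 in EMPA + PFD. The HFpEF libraries were the 3 highest of the 19 and the EMPA + PFD libraries the 3 lowest. In edgeR, Rab5c rose in DE (log2 fold change 0.35, SE 0.10, adjusted p = 0.025) and fell in TE (log2 fold change -0.43, SE 0.10, adjusted p = 0.0199), and PC gave 0.08 (SE 0.10, adjusted p = 0.58) and UT gave -0.12 (SE 0.10, adjusted p = 0.574). The DE call was lost without control 5w 1, HFpEF 1 or HFpEF 2 (edgeR adjusted p = 0.0831, 0.062 and 0.0529, in that order). The TE call was lost without untreated 2, untreated 3, EMPA + PFD 2 or EMPA + PFD 3 (edgeR adjusted p = 0.0762, 0.0582, 0.108 and 0.0583, in that order). Both calls were also lost with a term for Eif2s3y and in a fit on the groups compared alone. The disease effect was lower at week 9 than at week 5 (log2 difference -0.46, SE 0.14, adjusted p = 0.0318).

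Rab20, which acts in phagosome maturation, had 63.9, 42.4 and 45.8 CPM in control 5w and 20.8, 19.7 and 31.2 in HFpEF. At week 9 it had 34.9, 33.9 and 38 CPM in control 9w, 55.3, 18.8 and 42.7 in untreated, 38 and 37.9 in EMPA, 52.8 and 58.2 in PFD and 71.7, 58.6 and 59.9 in EMPA + PFD. Untreated 2 was the lowest library of all, and every EMPA + PFD library was above the untreated ones. It fell in DE in edgeR (log2 fold change -1.08, SE 0.29, adjusted p = 0.019), a call lost without control 5w 1, HFpEF 1 or HFpEF 2 (edgeR adjusted p = 0.0693, 0.0616 and 0.0688, in that order). TE gave 0.71 (SE 0.29, adjusted p = 0.104) and was not called. Rab21, which moves integrins, fell in PC (log2 fold change -0.78, SE 0.20, adjusted p = 0.00975), a call lost without control 9w 2 (edgeR adjusted p = 0.0522). Rab31, which links the Golgi to endosomes, fell in PC (log2 fold change -1.42, SE 0.36, adjusted p = 0.00783) from 108, 349 and 306 CPM in control 5w to 98.1, 80.3 and 106 CPM in control 9w, so that control 5w 1 was close to the control 9w libraries. Rab22a was called in none of the 10 comparisons in edgeR and stayed between 72.1 and 90.5 CPM.

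**Figure D3:**
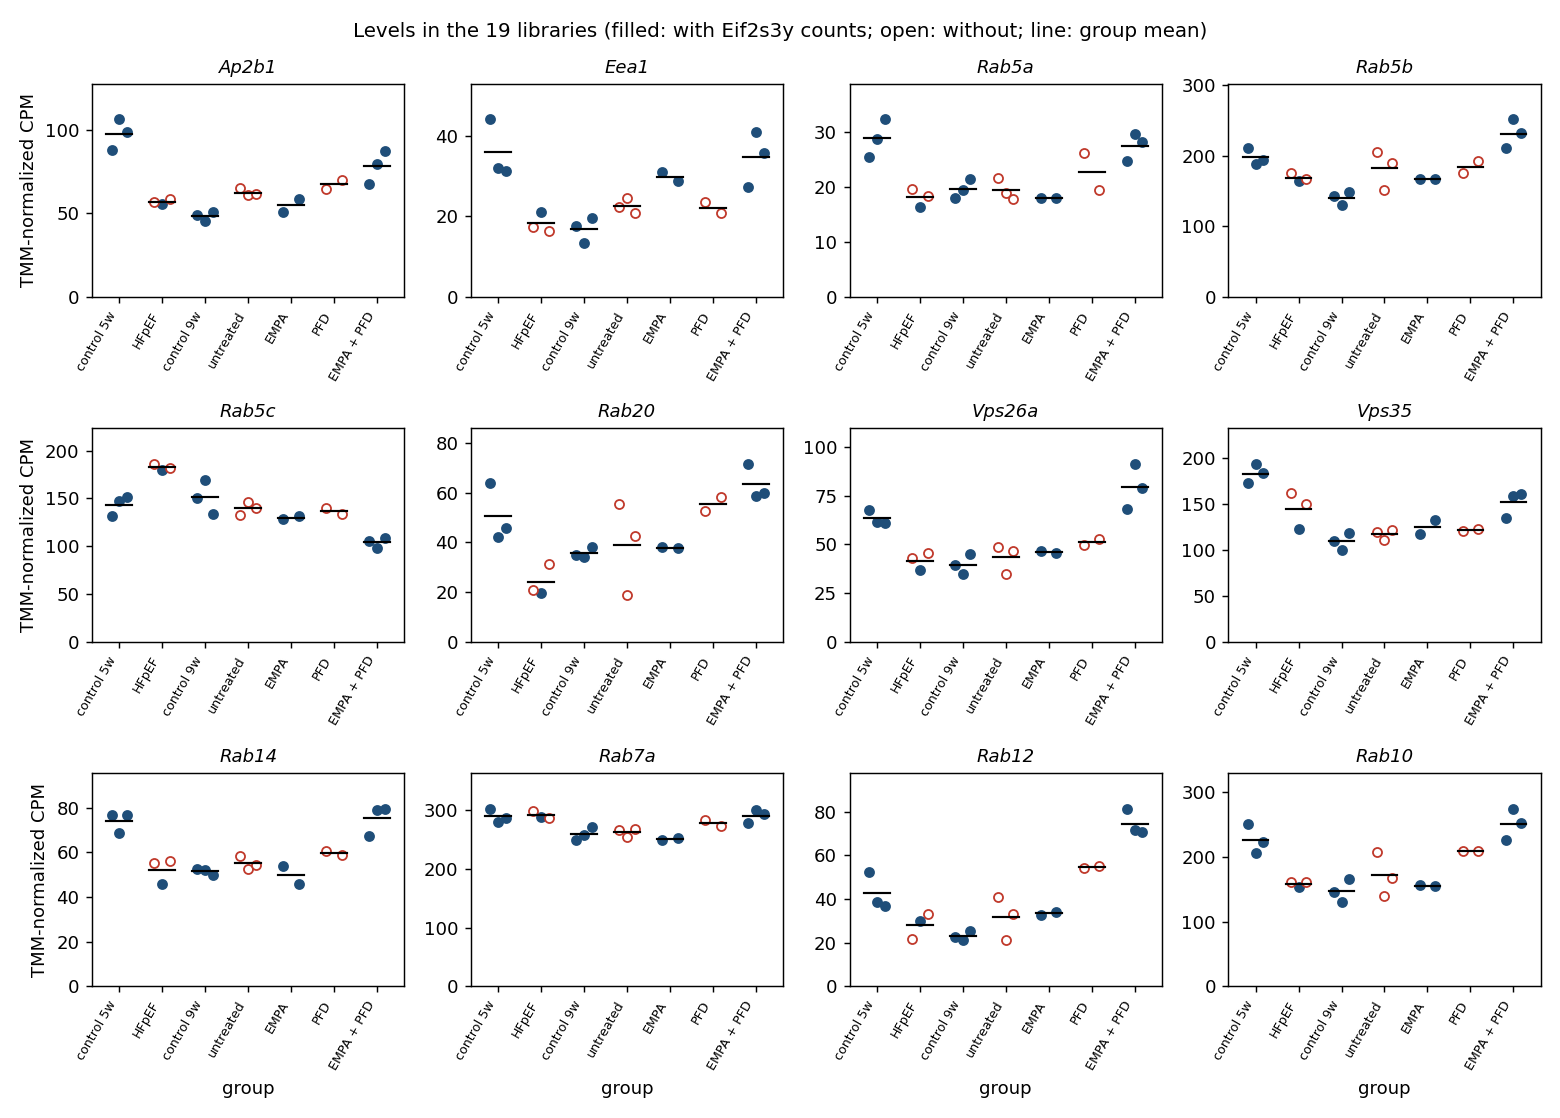
CPM of 12 members in each library (vertical axis) by group (horizontal axis), with filled points for libraries with Eif2s3y counts, open points for those without, and a line at the group mean. Rab12 and Vps26a in EMPA + PFD lay above all other libraries.

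Recycling members, retromer among them, fell more often than they rose in PC and DE, and Vps26a and Rab14 rose in TE. Of 13 members 11 were tested, and in edgeR 6 fell and 1 rose in PC, 3 fell in DE, 2 rose in TE and 3 rose when PFD was added to EMPA, where the falls in all genes were 17.2% in PC and 10.2% in DE and the rises 17.3% in PC, 6.60% in TE and 5.30% when PFD was added. The medians were -0.32 in PC, -0.34 in DE, 0.12 in UT and 0.29 in TE. For the 4 retromer genes alone they were -0.60, -0.36, 0.13 and 0.33, with all 4 negative in PC and DE and all 4 positive in UT and TE, and 4, 2, 0 and 1 of them called, beside 34.5%, 20.0%, 1.78% and 12.1% of all genes.

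Vps26a is an arrestin-like subunit of the retromer core. In the week 5 hearts it had 67.5, 61.7 and 61 CPM in control 5w and 42.9, 36.8 and 45.5 in HFpEF. In the week 9 hearts it had 39.4, 34.7 and 44.9 CPM in control 9w, 48.9, 34.6 and 46.4 in untreated, 46.7 and 45.5 in EMPA, 49.7 and 52.7 in PFD and 68, 91.5 and 79.1 in EMPA + PFD. The 3 EMPA + PFD libraries were the highest of the 19, and HFpEF and control 9w lay wholly below control 5w. In edgeR, Vps26a fell in PC (log2 fold change -0.68, SE 0.14, adjusted p = 0.00301) and in DE (log2 fold change -0.60, SE 0.14, adjusted p = 0.0116), and UT gave 0.12 (SE 0.14, adjusted p = 0.686). It rose in TE (log2 fold change 0.88, SE 0.14, adjusted p = 0.00677) and when PFD was added to EMPA (log2 fold change 0.79, SE 0.16, adjusted p = 0.0167). Each of the PC, DE and TE calls was kept with any 1 library left out, and the TE call was lost in a fit on the groups compared alone (adjusted p = 0.0898, in a range over all alternatives from 1.54e-06 to 0.0898). Adding EMPA to PFD gave 0.64 (SE 0.16, adjusted p = 0.24).

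Vps26b is its paralog. It stood at 119.5, 101 and 97.6 CPM in control 5w and 74.4, 87 and 82.3 in HFpEF. At week 9 it stood at 73.3, 71.7 and 75.3 CPM in control 9w, 104, 75.2 and 90 in untreated, 79.9 and 77.6 in EMPA, 90.6 and 102 in PFD and 115, 109 and 104 in EMPA + PFD. Untreated and control 9w overlapped, and EMPA + PFD lay above untreated. In edgeR, Vps26b fell in PC (log2 fold change -0.53, SE 0.12, adjusted p = 0.00403) and in DE (log2 fold change -0.38, SE 0.12, adjusted p = 0.0338). The DE call was lost without control 5w 1, control 5w 2, HFpEF 1 or HFpEF 3 (edgeR adjusted p = 0.135, 0.052, 0.112 and 0.0646, in that order). A term for Eif2s3y, a replicate block or a fit on the groups compared alone also ended it, as did omitting HFpEF 1 and untreated 2. Its DE log2 fold change ran from -0.441 to -0.222 over all alternatives. UT gave 0.29 (SE 0.12, adjusted p = 0.209), TE gave 0.29 (SE 0.12, adjusted p = 0.109), and the difference of UT and DE was called at 0.67 (SE 0.17, adjusted p = 0.0139).

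Vps35 is the scaffold of retromer that holds the other subunits. Its levels were 172, 194 and 183 CPM in control 5w and 162, 123 and 150 in HFpEF. Later they were 109, 100 and 118 CPM in control 9w, 119, 110.4 and 122 in untreated, 117 and 132 in EMPA, 121 and 123 in PFD and 135, 159 and 161 in EMPA + PFD. Control 5w lay above every other group, and EMPA + PFD lay above untreated, EMPA and PFD. In edgeR, Vps35 fell in PC (log2 fold change -0.75, SE 0.12, adjusted p = 0.000576), a call kept with any 1 library left out. DE gave -0.34 (SE 0.12, adjusted p = 0.0542), UT 0.10 (SE 0.12, adjusted p = 0.684) and TE 0.37 (SE 0.12, adjusted p = 0.0508), none of them called. Vps29, the third retromer subunit, fell in PC (log2 fold change -0.44, SE 0.14, adjusted p = 0.0239), a call lost without control 5w 1, control 9w 1 or control 9w 2 (edgeR adjusted p = 0.0772, 0.0924 and 0.0971, in that order), and its DE and TE values were -0.31 (SE 0.14, adjusted p = 0.119) and 0.22 (SE 0.14, adjusted p = 0.266). Vps29 levels in control 5w were 101, 83.6 and 86.7 CPM and in control 9w 61.5, 61.2 and 77.1 CPM, without overlap.

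Rab14 serves traffic between the Golgi and endosomes and takes part in Glut4 sorting. It had 77, 68.9 and 76.9 CPM in control 5w and 55.1, 45.8 and 56.1 in HFpEF. At week 9 the levels were 52.7, 52 and 50 CPM in control 9w, 58.5, 52.8 and 54.3 in untreated, 53.9 and 45.9 in EMPA, 60.7 and 59 in PFD and 67.3, 78.9 and 79.7 in EMPA + PFD. HFpEF and control 9w lay below control 5w, and EMPA + PFD lay above untreated, EMPA and PFD. In edgeR, Rab14 fell in PC (log2 fold change -0.53, SE 0.10, adjusted p = 0.00199) and in DE (log2 fold change -0.51, SE 0.10, adjusted p = 0.00605), each with any 1 library left out as well. Rab14 lost its DE call in a fit on the groups compared alone (edgeR adjusted p = 0.0632). It rose in TE (log2 fold change 0.45, SE 0.10, adjusted p = 0.0189) and when PFD was added to EMPA (log2 fold change 0.59, SE 0.12, adjusted p = 0.0151). The TE call was lost without untreated 2, untreated 3, EMPA + PFD 2 or EMPA + PFD 3 (edgeR adjusted p = 0.0778, 0.0507, 0.0747 and 0.0573, in that order).

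Rab11 and Rab4 proteins carry cargo back to the surface. Rab11a, of the slow recycling endosome, had 164, 139.8 and 150.1 CPM in control 5w and 196, 201 and 195 CPM in control 9w, and rose in PC in edgeR (log2 fold change 0.38, SE 0.12, adjusted p = 0.0236). That call was lost without control 5w 2, control 5w 3, control 9w 1 or control 9w 2 (edgeR adjusted p = 0.0919, 0.065, 0.0565 and 0.0682, in that order). The TE value of Rab11a was 0.02, with a 95% confidence interval of -0.23 to 0.28. Its paralog Rab11b was called in no comparison of the main edgeR fit, with a TE value of 0.46 (SE 0.16, edgeR adjusted p = 0.0655). Rab11b levels in EMPA + PFD were 196, 296 and 242 CPM beside 209, 155 and 169 CPM in untreated, which overlap. Rab4a, of fast recycling, was called in no comparison either, and its intervals were -0.99 to -0.09 in DE and -0.09 to 0.81 in TE. Rab4b had an interval of -0.52 to 0.19 in TE. Rab35 fell in PC (log2 fold change -0.29, SE 0.09, adjusted p = 0.0219) in edgeR, a call lost without control 5w 2, control 5w 3, control 9w 2 or control 9w 3 (edgeR adjusted p = 0.0519, 0.0818, 0.0695 and 0.0581, in that order). Rab15 was called in no comparison of the main edgeR fit, and Rab17 and Rab25 had too few counts to be tested.

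Late endosome members serve the path to the lysosome. All 11 were tested, and in edgeR 3 fell and 1 rose in PC, 0 were called in DE and 1 rose in TE and when PFD was added to EMPA. Beside these stand 17.2% falls and 17.3% rises in PC, 20.0% called in DE and rises of 6.60% in TE and 5.30% when PFD was added, over all genes. In DE the unadjusted p was under 0.05 for 2 of them, Rab12 and Rab24, beside 35.8% of all genes, and DESeq2 called 1, Rab12, beside 26%. The late endosome median was -0.29 in PC, 0.01 in DE, 0.02 in UT and -0.31 in TE, where 8 of the 11 were negative.

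Rab12 directs receptors from recycling endosomes to the lysosome. Its libraries had 52.6, 38.4 and 36.9 CPM in control 5w and 21.9, 30.1 and 33 in HFpEF. In week 9 they had 22.6, 21.1 and 25.5 CPM in control 9w, 40.7, 21.3 and 33.2 in untreated, 32.5 and 34.2 in EMPA, 54.2 and 54.9 in PFD and 81.5, 71.5 and 70.5 in EMPA + PFD. EMPA + PFD held the 3 highest libraries of the 19, and both PFD libraries lay above all of untreated and EMPA. Rab12 rose in TE in edgeR (log2 fold change 1.23, SE 0.21, adjusted p = 0.00677) and when PFD was added to EMPA (log2 fold change 1.16, SE 0.24, adjusted p = 0.0159), and fell in PC (log2 fold change -0.88, SE 0.21, adjusted p = 0.00552). The PC and TE calls were kept with any 1 library left out, and with a term for Eif2s3y the TE value was 1.10 (adjusted p = 0.109, the highest of its alternatives, whose lowest was 4.84e-06). DE gave -0.59 (SE 0.21, adjusted p = 0.0549) and PFD alone gave 0.79 (SE 0.23, adjusted p = 0.786), neither called.

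Rab7a, the main Rab of late endosomes and lysosomes, was called in none of the 10 comparisons in edgeR. It had 303, 281 and 287 CPM in control 5w and 299, 288 and 287 in HFpEF. At week 9 it had 250.2, 258 and 271 CPM in control 9w, 267, 254 and 268 in untreated, 249.7 and 253 in EMPA, 283 and 274 in PFD and 278, 301 and 294 in EMPA + PFD. Its 19 libraries spanned 249.7 to 303 CPM. The 95% confidence intervals of its log2 fold change were -0.35 to 0.03 in PC, -0.18 to 0.19 in DE, -0.17 to 0.21 in UT and -0.04 to 0.33 in TE, so a 2-fold change lay outside each of them.

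Rab7b, Rab32 and Rab24 were the other late endosome members called, all in PC. Rab7b had 10.5, 35.1 and 27.9 CPM in control 5w and 6.99, 5.04 and 8.77 CPM in control 9w and fell (log2 fold change -1.81, SE 0.50, adjusted p = 0.0125) in edgeR, a call lost without control 5w 2 or control 9w 2 (edgeR adjusted p = 0.0575 and 0.0592, in that order). Rab32, of lysosome-related organelles, fell (log2 fold change -1.30, SE 0.33, adjusted p = 0.00752), and Rab24, which takes part in autophagy, rose (log2 fold change 0.54, SE 0.13, adjusted p = 0.00675). Rab24 levels were 53.8, 54.5 and 56.1 CPM in control 5w and 75.5, 89.7 and 74.6 CPM in control 9w, without overlap. Rab9a, Rab9b, Rab29, Rab34, Rab36 and Rab38 were called in no comparison of the main edgeR fit.

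Secretory members were called in both directions. Of 24 members 22 were tested, and in edgeR 4 fell and 1 rose in PC, 4 fell and 1 rose in DE, 3 rose and 1 fell in TE, and 3 rose and 2 fell when PFD was added to EMPA. Over all genes the falls and rises were 17.2% and 17.3% in PC, 10.2% and 9.83% in DE, 5.52% and 6.60% in TE and 4.42% and 5.30% when PFD was added. Their medians were -0.23 in PC, -0.13 in DE, 0.08 in UT and 0.11 in TE.

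Rab10 brings Glut4 vesicles to the surface. It stood at 251, 206 and 222 CPM in control 5w and 161, 154 and 161 in HFpEF. In the later hearts it stood at 145, 129.9 and 166 CPM in control 9w, 207, 140.1 and 168 in untreated, 156 and 155 in EMPA, 209 and 209.7 in PFD and 226, 275 and 252 in EMPA + PFD. EMPA + PFD lay above untreated, EMPA and PFD, and HFpEF and control 9w lay below control 5w. In edgeR its log2 fold change was -0.62 (SE 0.14, adjusted p = 0.0041) in PC, -0.52 (SE 0.14, adjusted p = 0.02) in DE, 0.55 (SE 0.14, adjusted p = 0.0257) in TE and 0.69 (SE 0.16, adjusted p = 0.0216) when PFD was added to EMPA, all called. The DE call was lost without control 5w 1 or HFpEF 2 (edgeR adjusted p = 0.0732 and 0.06, in that order), and the TE call without untreated 2, untreated 3, EMPA + PFD 2 or EMPA + PFD 3 (edgeR adjusted p = 0.111, 0.0645, 0.11 and 0.0674, in that order). A term for Eif2s3y, or a fit on the groups compared alone, ended both calls as well.

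Rab18, found on lipid droplets and the endoplasmic reticulum, had 116, 126 and 118 CPM in control 5w and 104, 80.9 and 105 in HFpEF. By week 9 it had 87.8, 68.6 and 86.5 CPM in control 9w, 98.2, 77.2 and 89 in untreated, 83.5 and 86.4 in EMPA, 94.9 and 104 in PFD and 112, 149 and 132 in EMPA + PFD. EMPA + PFD lay above all other week 9 libraries. Rab18 fell in PC in edgeR (log2 fold change -0.57, SE 0.14, adjusted p = 0.0069) and rose in TE (log2 fold change 0.57, SE 0.14, adjusted p = 0.0231). The TE call was lost without untreated 2, untreated 3, EMPA + PFD 2 or EMPA + PFD 3 (edgeR adjusted p = 0.104, 0.056, 0.103 and 0.0591, in that order), and DE gave -0.31 (SE 0.14, adjusted p = 0.123).

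Rab2a acts between the endoplasmic reticulum and the Golgi. Levels were 125, 127 and 130.4 CPM in control 5w and 96.1, 86.1 and 99.6 in HFpEF. They were 94, 89.3 and 98.4 CPM in control 9w, 107, 82.2 and 103 in untreated, 88.8 and 85 in EMPA, 103 and 111 in PFD and 113, 132 and 125 in EMPA + PFD at week 9. Control 5w lay above HFpEF and control 9w, and EMPA + PFD lay above the other week 9 groups. In edgeR, Rab2a fell in PC (log2 fold change -0.44, SE 0.11, adjusted p = 0.00656) and in DE (log2 fold change -0.44, SE 0.11, adjusted p = 0.0134), and rose in TE (log2 fold change 0.34, SE 0.11, adjusted p = 0.0498). The DE call was lost without HFpEF 2 (edgeR adjusted p = 0.0502), and the TE call without untreated 2, untreated 3, EMPA + PFD 2 or EMPA + PFD 3 (edgeR adjusted p = 0.208, 0.066, 0.158 and 0.0979, in that order).

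Rab3d, of regulated secretion, had 38.6, 41.2 and 38.4 CPM in untreated and 27, 29.5 and 28.3 CPM in EMPA + PFD, with 37.4 and 35.7 CPM in EMPA and 29.8 and 32.5 CPM in PFD. The EMPA + PFD libraries were the 3 lowest of the 19. Rab3d fell in TE in edgeR (log2 fold change -0.48, SE 0.12, adjusted p = 0.0253), a call lost without untreated 2, untreated 3, EMPA + PFD 1, EMPA + PFD 2 or EMPA + PFD 3 (edgeR adjusted p = 0.0985, 0.0617, 0.0536, 0.0927 and 0.0829, in that order). Rab3b had 112, 44.1 and 59.2 CPM in control 5w and 2.23, 27.3 and 16.8 in HFpEF, with HFpEF 1 the lowest, and fell in DE (log2 fold change -2.23, SE 0.67, adjusted p = 0.031), a call lost without control 5w 1, control 5w 3, HFpEF 1 or HFpEF 3 (edgeR adjusted p = 0.108, 0.0525, 0.0568 and 0.0651, in that order). Rab3a fell in DE (log2 fold change -1.13, SE 0.34, adjusted p = 0.0325), a call lost without control 5w 1, HFpEF 1 or HFpEF 2 (edgeR adjusted p = 0.166, 0.114 and 0.0523, in that order).

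Rab8a, of transport to the surface, had 51.9, 69 and 62.3 CPM in control 5w and 87.8, 81 and 73.6 in HFpEF, without overlap. Rab8a rose in DE in edgeR (log2 fold change 0.40, SE 0.13, adjusted p = 0.0446), a call lost without control 5w 1, control 5w 3, HFpEF 1 or HFpEF 2 (edgeR adjusted p = 0.156, 0.0878, 0.135 and 0.0922, in that order). Its TE value was -0.38 (SE 0.13, adjusted p = 0.0728). Rab27a, which docks secretory vesicles, had 35.5, 34.9 and 36.1 CPM in control 5w and 66.9, 44 and 71.8 CPM in control 9w and rose in PC (log2 fold change 0.78, SE 0.16, adjusted p = 0.00232). The disease effect on Rab27a differed between the weeks (log2 difference -0.80, SE 0.22, adjusted p = 0.0214), from 0.44 in DE to -0.37 in UT. Rab8b fell in PC (log2 fold change -0.74, SE 0.27, adjusted p = 0.0425), a call lost without control 5w 2, control 5w 3, control 9w 1, control 9w 2 or control 9w 3 (edgeR adjusted p = 0.156, 0.0701, 0.0784, 0.137 and 0.0766, in that order).

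Rab13, of cell junctions, had 27.7 and 46.4 CPM in EMPA, 12.5, 13 and 12 CPM in EMPA + PFD and 16, 28.2 and 25.6 CPM in untreated, with EMPA + PFD below all others. Rab13 fell when PFD was added to EMPA (log2 fold change -1.57, SE 0.34, adjusted p = 0.0189) in edgeR, and TE gave -0.90 (SE 0.32, adjusted p = 0.0717). Rab26, with 1.2 and 2.92 CPM in EMPA and 0.355, 0.598 and 0.313 CPM in EMPA + PFD, fell (log2 fold change -2.27, SE 0.66, adjusted p = 0.0448) at levels near the floor of 3 counts. The fall of Rab13 remained called without EMPA 1 or EMPA + PFD 1 but not without EMPA 2, EMPA + PFD 2 or EMPA + PFD 3, and that of Rab26 was called with none of these 5 libraries left out. Rab1a, Rab1b, Rab2b, Rab6a, Rab6b, Rab19, Rab27b, Rab30, Rab33a, Rab33b and Rab43 were called in no comparison of the main edgeR fit. Rab39a had too few counts to be tested and Rab3c had none. Of the 4 members with other roles, Rab23, a regulator of hedgehog signaling at the cilium, fell in PC (log2 fold change -1.13, SE 0.28, adjusted p = 0.00752) and so did Rab40b (log2 fold change -0.67, SE 0.24, adjusted p = 0.0418), a call lost without control 5w 1, control 5w 3, control 9w 1 or control 9w 2 (edgeR adjusted p = 0.147, 0.0758, 0.107 and 0.175, in that order), while Rab28 and Rab40c were called in no comparison of the main edgeR fit.

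Over the 10 comparisons, 32 of the 57 members tested were called in at least 1 (56.1%) and 25 in none, beside 48.8% of all genes called in at least 1. In PC, DE, TE and adding PFD to EMPA, the libraries of the groups compared did not overlap for any of the 24, 13, 10 and 12 members called, and neither did they for 93.6%, 95.2%, 96.8% and 99.1% of all genes called. The p-values measure the spread between hearts.

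Markers of cell types moved with some of these comparisons, and their part in the results for the members was not tested. In these bulk samples fewer cells of a type and less RNA per cell cannot be told apart. Summed over 11 ventricular cardiomyocyte markers, with Myh6 the most abundant, the level was 97160, 40780 and 45970 CPM in control 5w and 12780, 24780 and 37850 in HFpEF. At week 9 the sum was 40740, 47030 and 44540 CPM in control 9w, 77020, 22600 and 62370 in untreated, 50980 and 40240 in EMPA, 72710 and 81340 in PFD and 78310, 112200 and 92800 in EMPA + PFD. Control 5w 1 was far above the other control 5w libraries, HFpEF 1 was lowest, and EMPA + PFD lay above untreated, whose library 2 was low. In edgeR 1 of the 11 fell in PC, 4 fell in DE and 1 rose in TE.

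Fibroblast markers (9, Col3a1 most abundant) summed to 4672, 45570 and 36990 CPM in control 5w and 17870, 10030 and 13240 in HFpEF. Later the sum was 4442, 3134 and 4737 CPM in control 9w, 4053, 8740 and 3867 in untreated, 3824 and 7838 in EMPA, 4559 and 3980 in PFD and 4848, 2174 and 4138 in EMPA + PFD. Control 5w 2 and 3 stood above every other library and control 5w 1 with the week 9 libraries. In PC 7 of the 9 fell in edgeR. Macrophage and monocyte markers (10, Lyz2 most abundant) summed to 716, 2252 and 1820 CPM in control 5w and 3241, 700.4 and 1884 in HFpEF. At week 9 they came to 394, 309 and 469 CPM in control 9w, 397, 905 and 476 in untreated, 552 and 559 in EMPA, 564 and 401 in PFD and 295, 327 and 471 in EMPA + PFD. All control 9w libraries lay below control 5w, and 6 of the 10 fell in PC in edgeR.

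Endothelial markers (9, Vwf most abundant) summed to 1887, 1542 and 1763 CPM in control 5w and 1833, 3863 and 3064 in HFpEF. The week 9 sums were 4124, 4303 and 3576 CPM in control 9w, 3233, 3761 and 3534 in untreated, 3194 and 2502 in EMPA, 2709 and 2881 in PFD and 2328, 1956 and 1984 in EMPA + PFD. Control 9w lay above control 5w and EMPA + PFD below untreated, and in edgeR 8 of 9 rose in PC, 5 rose in DE and 1 fell in TE. Atrial markers (7, Nppa most abundant) summed to 3324, 6163 and 4689 CPM in control 5w and 2134, 318 and 2010 in HFpEF. At week 9 the sum was 5247, 229 and 23410 CPM in control 9w, 82.5, 14940 and 509.6 in untreated, 731 and 5220 in EMPA, 3017 and 90.7 in PFD and 118, 428 and 194 in EMPA + PFD. Control 9w 3 and untreated 2 stood far above the rest, and 2 of 7 rose in PC, 1 rose and 1 fell in DE, 2 fell in TE and 1 fell when PFD was added to EMPA. No marker of these 5 lists was at 0 in any library.

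Lymphocyte markers (8 of 9 in the files, Cd2 most abundant) summed to 11.3, 14.8 and 17.4 CPM in control 5w and 50, 36.1 and 41.5 in HFpEF, and 4 of 7 tested rose in DE, 1 in PC and 1 in UT. Schwann cell markers (6, Sox10 most abundant) summed to 22.2, 17.1 and 18.4 CPM in control 5w and 230.2, 20.6 and 41.4 in HFpEF. At week 9 the sum was 42.6, 18.2 and 54.6 CPM in control 9w, 24.6, 82.3 and 25 in untreated, 30.2 and 147 in EMPA, 12.8 and 22.9 in PFD and 24.6, 15.2 and 16.6 in EMPA + PFD. HFpEF 1 and EMPA 2 were highest, and of 5 tested 2 rose in DE and 2 fell when PFD was added to EMPA. Mesothelial markers (4 of 6 in the files, Wt1 most abundant) summed to 55.4, 27.7 and 39 CPM in control 5w and 71.5, 119 and 132 in HFpEF, and 3 of 4 rose in DE and 1 in PC. In these 3 lists up to 2 markers were at 0 in a library. Erythroid markers (8 of 9 in the files, Hbb most abundant) summed at week 9 to 1627, 1929 and 1251 CPM in control 9w, 243, 194 and 319.5 in untreated, 2468 and 479 in EMPA, 754 and 903 in PFD and 149.5, 509 and 224 in EMPA + PFD, and 3 of 6 fell in UT and 4 of 6 when PFD was added to EMPA, while 1 rose in DE and 1 in TE. Of the smooth muscle and pericyte list 1 of 9 rose and 1 fell in PC, 1 fell in DE and 2 fell when PFD was added to EMPA. Of the skeletal muscle list 2 of 5 rose and 1 fell in PC and 1 rose in DE, and of the 3 adipocyte markers tested edgeR called none in PC, DE, UT, TE or when PFD was added to EMPA. The skeletal muscle sum (9 markers, Acta1 most abundant) was 4366, 3667 and 3216 CPM in control 5w and 1148, 413 and 1686 in HFpEF. In control 9w it was 529, 586 and 612 CPM, below every control 5w library. Acta1 alone had 4340, 3586 and 3148 CPM in control 5w and 1049, 369 and 1632 in HFpEF. Its level was 488, 547 and 569 CPM in control 9w. The sum thus follows Acta1 and does not describe the other markers of the list.

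Other genes of membrane traffic, in 8 lists with 130 genes tested of 156 listed, changed in both directions. In edgeR 24 rose and 32 fell in PC, 13 rose and 8 fell in DE, 0 rose and 2 fell in UT, 6 rose and 7 fell in TE, and 3 rose and 11 fell when PFD was added to EMPA. Over all genes the rises and falls were 17.3% and 17.2% in PC, 9.83% and 10.2% in DE, 0.589% and 1.19% in UT, 6.60% and 5.52% in TE and 5.30% and 4.42% when PFD was added. For EMPA and PFD alone 0 were called, beside 0.0404% and 0.00807%. Their medians were -0.04 in PC, 0.03 in DE, 0.00 in UT and -0.02 in TE, beside -0.04, 0.02, 0.01 and -0.03 over all genes tested. In PC, 8 of 16 genes of AP-2 and clathrin fell and 1 rose (median -0.28). Of 17 of the WASH and retriever complexes 7 fell and 2 rose (median 0.02). Of 22 for proteins that switch Rabs off 4 fell and 7 rose (median 0.22). A difference between the lists was not tested.

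Around clathrin, Epn2, an epsin that bends membrane, had 95.8, 89 and 89.6 CPM in control 5w and 129, 147 and 127 in HFpEF. At week 9 it had 141, 156 and 120.5 CPM in control 9w, 134, 152 and 141 in untreated, 136 and 130.4 in EMPA, 115 and 129.9 in PFD and 109, 103 and 105 in EMPA + PFD. HFpEF lay above control 5w and EMPA + PFD below untreated. Epn2 rose in DE (log2 fold change 0.55, SE 0.11, adjusted p = 0.00445) and fell in TE (log2 fold change -0.43, SE 0.11, adjusted p = 0.0244) in edgeR, while its paralog Epn1 fell in DE (log2 fold change -0.55, SE 0.16, adjusted p = 0.0287). The kinase gene Aak1, whose product phosphorylates AP-2, rose in TE (log2 fold change 0.84, SE 0.22, adjusted p = 0.0271). Among sorting nexins and retromer cargo, Snx8 rose in DE (log2 fold change 0.70, SE 0.18, adjusted p = 0.0148) and so did Sorl1 (log2 fold change 0.78, SE 0.20, adjusted p = 0.0168). Snx27, which links cargo to retromer, fell in DE (log2 fold change -0.54, SE 0.14, adjusted p = 0.0148), as did the mannose 6-phosphate receptor gene Igf2r (log2 fold change -0.98, SE 0.23, adjusted p = 0.0122).

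In the list of the WASH and retriever complexes, Commd4 rose in DE (log2 fold change 0.61, SE 0.11, adjusted p = 0.00231) in edgeR. In TE, Washc3 rose (log2 fold change 0.37, SE 0.08, adjusted p = 0.0184) and Washc1 fell (log2 fold change -0.56, SE 0.14, adjusted p = 0.0253). Of the tethers that fuse endosomes and lysosomes, Vps33a rose in TE (log2 fold change 0.53, SE 0.15, adjusted p = 0.0385) and so did Vps39 (log2 fold change 0.38, SE 0.11, adjusted p = 0.0413). Of the genes that attach lipid to Rabs, Rabggtb fell in DE (log2 fold change -0.37, SE 0.11, adjusted p = 0.0301) and Chm rose in TE (log2 fold change 0.53, SE 0.15, adjusted p = 0.0345).

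Rin3, which activates Rab5, had 37.9, 47.9 and 44.3 CPM in control 5w and 70.8, 61.8 and 71.5 in HFpEF. At week 9 it had 70.2, 82.8 and 58.5 CPM in control 9w, 38.9, 58.9 and 51.3 in untreated, 48.3 and 37.2 in EMPA, 57.8 and 46 in PFD and 33.9, 28.7 and 30.2 in EMPA + PFD. HFpEF lay above control 5w and EMPA + PFD below untreated. Rin3 rose in DE (log2 fold change 0.65, SE 0.17, adjusted p = 0.0169) and fell in TE (log2 fold change -0.69, SE 0.17, adjusted p = 0.0248) in edgeR. Another exchange factor gene, Dennd6a, rose in DE (log2 fold change 0.49, SE 0.15, adjusted p = 0.0297). Among genes of Rab GTPase activators, Sgsm2 fell in DE (log2 fold change -0.69, SE 0.14, adjusted p = 0.006) and rose in TE (log2 fold change 0.46, SE 0.14, adjusted p = 0.0474), and Rabgap1 fell in DE (log2 fold change -0.48, SE 0.10, adjusted p = 0.00796).

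Of the same class, Sgsm3 rose in DE (log2 fold change 0.82, SE 0.17, adjusted p = 0.00632) in edgeR and so did Tbc1d10a (log2 fold change 0.65, SE 0.16, adjusted p = 0.0127). In TE, Tbc1d2 fell (log2 fold change -1.16, SE 0.28, adjusted p = 0.0225) and so did Usp6nl (log2 fold change -0.87, SE 0.25, adjusted p = 0.0395). Among effectors, Bicd1, a dynein adaptor, rose in DE (log2 fold change 0.94, SE 0.26, adjusted p = 0.024), and Ehd4 fell (log2 fold change -1.13, SE 0.29, adjusted p = 0.0168). The Rab5 effector gene Ankfy1 fell in TE (log2 fold change -0.44, SE 0.11, adjusted p = 0.0266) and so did Ehd2, of caveolae, (log2 fold change -0.75, SE 0.23, adjusted p = 0.0482).

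Promoters are shown for 6 members called in DE, in TE or in the difference of UT and DE, and motifs were counted in all members with one. They were taken from RefSeq (assembly GRCr8) as 250 bases before to 50 after each gene start, while the counts were made on rn6, so the builds differ. Of the 61 members 51 had a promoter there, and Rab1b, Rab22a, Rab23, Rab24, Rab26, Rab2a, Rab2b, Rab33a, Rab36 and Rab38 had no entry. Motifs were sought on both strands. TCACGTGA, the core of the motif shared by lysosomal genes, was in 2 of the 51 (3.92%), Rab21 and Vps26a, beside 0.777% of all 33469 promoters and 1.63% of those of genes tested. GGGCGG, the GC box, was in 40 (78.4%), beside 33.1% and 60.8%. CCAAT was in 21 (41.2%), beside 37.5% and 37.4%, AAGATGGCG in 2 (3.92%), beside 1.73% and 3.53%, and TCAAGGTCA in 0, beside 0.433% and 0.256%. None of these motifs contains another. A match describes the letters and is neither a site nor a cause. Only the motif named for a gene is capitalized below. The windows of Rab21 and Vps26a also hold the GC box or its reverse complement in small letters. Below, 60 bases of the promoter are printed in the direction of the gene, with matches in capitals: TCACGTGA in Rab21 (minus strand, chr7:52814963-52815022) and Vps26a (minus strand, chr20:30976866-30976925), and GGGCGG or its reverse complement in Eea1 (plus strand, chr7:32491533-32491592), Rab5a (plus strand, chr9:6721068-6721127), Rab14 (minus strand, chr3:38911722-38911781) and Rab10 (minus strand, chr6:32039687-32039746).
Rab21: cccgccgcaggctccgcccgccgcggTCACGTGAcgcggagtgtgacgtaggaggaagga
Vps26a: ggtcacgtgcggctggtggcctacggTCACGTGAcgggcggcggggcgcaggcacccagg
Eea1: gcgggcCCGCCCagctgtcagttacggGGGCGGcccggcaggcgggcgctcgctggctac
Rab5a: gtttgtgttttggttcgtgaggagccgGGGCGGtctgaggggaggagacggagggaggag
Rab14: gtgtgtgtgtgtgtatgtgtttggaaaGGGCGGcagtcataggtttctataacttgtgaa
Rab10: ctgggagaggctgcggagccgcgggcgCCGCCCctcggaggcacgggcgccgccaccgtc

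In the RefSeq gene table of GRCr8, 21 of the 61 members overlap another gene. For example, Rab5a overlaps Pp2d1, Rab3a overlaps Mpv17l2 and Vps29 overlaps Rad9b. The strand setting of the counting is not given, so reads of such pairs may not have been kept apart.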

How the data were processed

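The values are whole counts by gene symbol that the authors deposited unnormalized, made with Trim Galore, HISAT2 on the rn6 genome and htseq-count. Tool versions, the annotation release, the strand setting and the overlap mode are not named in the sources used here. The series table repeats these values and was left aside. All per-sample columns were used, and 0 were left unmapped. The authors left out 1 EMPA and 1 PFD sample for corrupted files. The members and lists were chosen with earlier results of these data known.

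Counts were normalized by TMM and tested with the quasi-likelihood F test of edgeR 4.0.16 in R 4.3.3 (limma 3.58.1), in a single model of 7 groups and 19 libraries, over the genes kept by filterByExpr, with Benjamini-Hochberg adjustment over all 12388. A member was called at an adjusted p under 0.05. The 2-fold rule also asked for a log2 fold change of 1 or more in size.

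Named with values were Rab4a, Rab5a, Rab5b, Rab5c, Rab7a, Rab11a, Rab11b, the retromer genes, Eea1 and Ap2b1, up to 6 members each way with the smallest adjusted p among those called in a comparison with a control or with untreated, up to 4 each way in a test of a difference, and up to 2 each way in DE and TE from each list of other trafficking genes. Other members given with values, such as Rab20, Rab21, Rab31, Rab35, Rab3a, Rab3b, Rab7b, Rab8b, Rab23, Rab32, Rab40b and Rab4b, were chosen after their values were seen.

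The alternatives were relative log expression (RLE) scaling, no filter beyond 1 count, DESeq2 1.42.0, a fit on the groups compared alone, the 2-fold rule, a replicate block, a term for Eif2s3y, the libraries with Eif2s3y counts alone, the omission of each library, and the omission of HFpEF 1 and untreated 2 together, added after seeing the data. Markers covered ventricular cardiomyocyte, atrial, fibroblast, endothelial, smooth muscle and pericyte, macrophage and monocyte, lymphocyte, erythroid, adipocyte, Schwann cell, mesothelium and skeletal muscle. 1 marker gene, taken off its list after its results were seen but not because of them, and 1 gene overlap are not reported here. The other 11 marker lists are as first chosen.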

Additional observations from a re-analysis of the deposited data

Results flagged for a closer look

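The disease effects at week 9 (untreated minus control 9w) and week 5 (HFpEF minus control 5w) were compared by a test of the difference itself in edgeR. For 15 members (26.3%, beside 20.0% of all genes tested) they differed, with an adjusted p under 0.05. The log2 difference, week 9 minus week 5, was positive for 12 of them: Ap2b1 at 1.14, Eea1 at 1.39, Rab14 at 0.60, Vps26b at 0.67, Rab10 at 0.74, Rab5b at 0.61, Vps26a at 0.73, Rab12 at 1.05, Rab5a at 0.66, Rab2a at 0.49, Rab21 at 0.87 and Rab20 at 1.21. It was negative for 3: Rab27a at -0.80, Rab5c at -0.46 and Rab8a at -0.56. The control libraries are those of PC, where all of the 12 but Rab20 were called lower. A change in the controls alone can therefore give such a difference, and its part was not tested. With 1 library left out, 5 to 21 members were called, and the shares of all genes are given with the comparison above. At week 9 the untreated libraries had 0 counts of Eif2s3y and the control 9w libraries 613 to 741, and at week 5 HFpEF 1 and 3 had 0 and the control 5w libraries 1204 to 1321, so the effect at week 9 cannot be told apart from that difference, and that at week 5 only through HFpEF 2.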

How the results depend on the processing

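No change of sign was seen for any called member of PC, DE or TE under any alternative. Of the called members, 17 of 24 in PC, 3 of 13 in DE (Ap2b1, Rab5a and Vps26a) and 0 of 10 in TE kept their call under all of them apart from the 2-fold rule, which is given by itself below. These were 12 alternatives in PC, 14 in DE and 13 in TE, since the libraries with Eif2s3y counts were fitted by themselves for DE only and the omission of HFpEF 1 and untreated 2 does not bear on PC. Counted by member and alternative, again without that rule, the call was kept in 259 of 288 cases in PC, 127 of 182 in DE and 66 of 130 in TE. With a term for Eif2s3y the DE calls of Eea1, Rab10, Rab20, Rab3a, Rab3b, Rab5c, Rab8a and Vps26b were lost. In TE the same term ended the calls of Eea1, Rab10, Rab12, Rab2a, Rab3d, Rab5a and Rab5c. RLE scaling, and no filter beyond 1 count, gave counts within 1.5 times those reported in all 10 comparisons.

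DESeq2 called 2 members in UT, 17 in TE, 20 when PFD was added to EMPA and 2 when EMPA was added to PFD, beside 6.69%, 20.6%, 17.4% and 0.84% of all genes. A fit on the groups compared alone called 3 in DE, 0 in TE and 7 in the difference of UT and DE, beside 6.01%, 0.0435% and 13.1%, and it has fewer libraries to estimate the spread. The 2-fold rule, which is stricter by construction, called 6 in PC, 3 in DE, 1 in TE, 3 when PFD was added to EMPA and 4 in the difference of UT and DE, beside 14.7%, 8.69%, 3.82%, 3.44% and 12%. A term for Eif2s3y called 6 in DE, 4 in TE and 9 in the difference of UT and DE, beside 10.8%, 3.99% and 15.3%, and the libraries with Eif2s3y counts alone called 7 in DE, beside 12.4%, with HFpEF 2 as the only HFpEF library. HFpEF alone has libraries of both kinds, so the term rests on HFpEF 2 against HFpEF 1 and 3. For the difference of UT and DE those libraries could not give a value, since untreated has none. Leaving out HFpEF 1 and untreated 2 together, chosen after seeing the data, called 5 in UT, 2 in TE and 23 in the difference of UT and DE, beside 9.26%, 2.32% and 28.2%. The cause of these changes was not tested unless stated.

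A replicate block called 22 members in PC, 10 in DE, 0 in UT, 8 in TE, 6 when PFD was added to EMPA and 13 in the difference of UT and DE, beside 31.2%, 17%, 0.799%, 8.84%, 3.49% and 16.6% of all genes. Samples with the same number are not pairs: over 52 pairs of libraries from different groups the correlation of deviations across genes ran from -0.53 to 0.49, with a mean of -0.049, beside 0.022 for other numbers.

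With each library left out in turn, the count of members called ran from 17 to 24 in PC, 7 to 12 in DE, 0 to 4 in UT, 2 to 19 in TE, 0 to 0 for EMPA, 0 to 0 for PFD, 0 to 11 when PFD was added to EMPA, 0 to 0 when EMPA was added to PFD, 5 to 21 in the difference of UT and DE and 0 to 0 for the departure from the sum of single effects. The shares of all genes ran from 20.9% to 34.4% in PC, 12% to 16.9% in DE, 0.0647% to 8.22% in UT, 0.888% to 18.3% in TE, 0.0554% to 12.3% when PFD was added to EMPA and 10.7% to 29.9% in the difference of UT and DE. Where this left 1 library in EMPA or PFD, that library was assumed to vary like the other groups. The same was assumed of HFpEF 2 in the fit on the libraries with Eif2s3y counts alone.

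The genes of the trafficking and marker lists were not refitted under the alternatives. With 2 or 3 hearts a group and the Eif2s3y difference between groups, TE, UT, DE, the difference of UT and DE, the EMPA effect and adding EMPA to PFD cannot be read as effects of treatment or disease alone. RT1-CE16 differed in PC, in the EMPA effect and in adding PFD to EMPA, and did not cancel in the departure from the sum of single effects. These comparisons therefore carry the same kind of limit. Members near the floor of 3 counts, such as Rab26, Rab27b, Rab33a and Rab36, carry little information at these depths.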
